A study of Mus musculus with 17 samples.

Results

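Nrep, Neto2 and Cbr2 are described here, 3 of the 19938 genes that carried 1 gene symbol on whole-transcript arrays (Affymetrix) hybridised with RNA of mouse skeletal muscle. They were selected on these data, for strong falls in diabetic against control muscle. Each was read from the only probe set that named it alone. The study asked how bezafibrate, a lipid-lowering agonist of the PPAR family of nuclear receptors, acts in mice made diabetic with streptozotocin, which kills pancreatic beta cells. All 17 mice were wildtype males of strain C57BL/6N, 5 to 6 months old, and each gave 1 array. Controls (Con,SD, n = 7) had mock injections of citrate buffer and were kept on standard diet. Diabetic mice (STZ,SD, n = 5) were injected with streptozotocin at 65 mg/kg on 5 days at an age of 10 to 16 weeks and were kept on standard diet as well. Treated mice (STZ,BEZ, n = 5) were injected in the same way and had, from 2 weeks later, 8 weeks of food with 0.25% or 0.5% bezafibrate. The labels name neither the strength each mouse ate nor the muscle sampled. The study's methods state a lower streptozotocin dose than the labels, the higher bezafibrate strength alone and untreated controls.

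Nrep encodes a small intracellular protein first known from nerve cells, which is also made by regenerating muscle and by myofibroblasts and is tied there to TGF-beta signalling. Neto2 encodes a membrane protein with CUB domains that joins kainate-type glutamate receptors in neurons as an auxiliary subunit and slows their gating. Cbr2 encodes a mitochondrial carbonyl reductase of the short-chain dehydrogenase family, which reduces aldehydes and ketones with NADPH and is best known from lung and from maturing adipocytes. None of them is a classical gene of the muscle fibre, and in whole muscle fewer cells of a type and less RNA per cell cannot be told apart.

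The windows around a start site of Neto2 and of Cbr2 are shown so that the letters around the starts of these falling genes can be read beside their values. Each covers 250 bases before and 50 bases after a start given by RefSeq on GRCm38.p6, minus strand, at chr8:85700875-85701174 for Neto2 and at chr11:120731972-120732271 for Cbr2. Capitals mark GGGCGG in Neto2, and in Cbr2 a CArG box, the site class of serum response factor, and then ATAAAA. Counted from the start site to the first base, GGGCGG lies at -74 and -57 and the CArG box at -108. ATAAAA lies at 0, on the start itself and not in front of it.
Neto2: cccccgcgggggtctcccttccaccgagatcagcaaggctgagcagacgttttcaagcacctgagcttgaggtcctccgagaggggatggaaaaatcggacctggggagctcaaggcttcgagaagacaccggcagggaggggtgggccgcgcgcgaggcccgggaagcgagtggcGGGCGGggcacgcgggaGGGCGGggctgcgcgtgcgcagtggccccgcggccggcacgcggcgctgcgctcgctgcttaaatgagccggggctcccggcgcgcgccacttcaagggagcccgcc
Cbr2: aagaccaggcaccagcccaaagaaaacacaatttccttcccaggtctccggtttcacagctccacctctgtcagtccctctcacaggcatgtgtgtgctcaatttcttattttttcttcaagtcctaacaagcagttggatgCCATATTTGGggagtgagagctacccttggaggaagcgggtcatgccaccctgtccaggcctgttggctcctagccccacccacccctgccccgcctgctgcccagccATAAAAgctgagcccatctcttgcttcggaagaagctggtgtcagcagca

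The Neto2 window was 72.0% G and C and held GGGCGG 2 times, while the Cbr2 window was 54.7% G and C and held none. The median of all 32851 mouse windows was 52.7%. Of all windows, 35.7% held GGGCGG on either strand, 18.5% held ATAAAA and 1.63% held a CArG box. Both windows held CANNTG, the E-box core, 1 time in Neto2 and 2 times in Cbr2, as did 72.3% of all windows. Neither window held TATAAA, which 13.6% of all windows held, or the CCAAT core, which 37.4% held. Neither held TGTTTAC, a forkhead core found in 3.65% of windows, or a MEF2 site, found in 3.19%. Neto2 has a further RefSeq start with a window at chr8:85690960-85691259, of 42.7% G and C and without GGGCGG. Apart from CANNTG, the Neto2 and Cbr2 windows shown above had none of the searched letters in common. E-box cores can overlap other motifs, and the matches describe letters only.

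The arrays carried muscle RNA in every group. The mean level of 9 fibre genes, such as the skeletal actin Acta1 and the creatine kinase Ckm, lay between 12.98 and 13.30 on the log2 scale on all 17 arrays. Correlations between arrays of a group were 0.952 to 0.991 for controls, 0.988 to 0.994 for STZ,SD and 0.987 to 0.993 for STZ,BEZ. Con,SD array 1 stood apart with liver markers at a mean of 12.2, against at most 10.2 elsewhere, and with testis markers at 8.98, against at most 6.01 elsewhere. Con,SD arrays 2 and 3 had liver markers at 10.2 and 9.68, also above every streptozotocin array (at most 9.22). Group means of these markers were 9.57, 8.67 and 8.03 in Con,SD, STZ,SD and STZ,BEZ. Against Con,SD, 2 of 8 were called lower in STZ,SD and 6 in STZ,BEZ, where 25.8% and 21.6% of all genes were called. Con,SD array 1 held middle or low control values of the 3 genes, 11.60 for Nrep, 6.98 for Neto2 and 10.28 for Cbr2. With Con,SD arrays 1, 3 and 4 left out together, a set taken from earlier results of these data, the falls in STZ,SD were -2.05 for Nrep, -1.92 for Neto2 and -1.98 for Cbr2.

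Nrep had the widest range of the 3 genes among diabetic mice. In Con,SD its log2 values ran from 11.46 to 12.16 with a median of 11.70, a range of 1.62-fold. In STZ,SD the values were 10.27, 8.12, 8.14, 11.32 and 10.85 in mice 1 to 5, a range of 9.18-fold. Mice 2 and 3 were thus far below the rest of the group, and mouse 4 was just below the lowest control. The groups did not overlap, and 3.43% of all genes had every STZ,SD mouse below every control. In STZ,BEZ the values were 11.21, 10.46, 11.52, 10.78 and 9.61, a range of 3.75-fold. Only mouse 3 of the treated group reached the control range. The mean was 11.7 ± 0.230 (SD, n = 7) for controls, 9.74 ± 1.51 (SD, n = 5) for STZ,SD and 10.7 ± 0.738 (SD, n = 5) for STZ,BEZ.

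Neto2 was the most variable of the 3 among control mice. In Con,SD its log2 values ran from 6.95 to 8.47 with a median of 7.34, a range of 2.87-fold, with mice 3 and 6 about a whole log2 unit above the others. In STZ,SD the values were 5.09, 5.28, 4.96, 7.10 and 6.07 in mice 1 to 5, a range of 4.39-fold. Mice 1, 2 and 3 lay close together at the bottom, and mouse 4 lay inside the control range. In STZ,BEZ the values were 6.58, 6.38, 7.15, 6.54 and 5.93, a range of 2.32-fold. Of these, mouse 3 alone lay inside the control range. The group means were 7.56 ± 0.644 (SD, n = 7), 5.70 ± 0.892 (SD, n = 5) and 6.52 ± 0.436 (SD, n = 5) in Con,SD, STZ,SD and STZ,BEZ.

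Cbr2 was the only one of the 3 genes for which both streptozotocin groups lay below every control mouse. Of all genes, 3.43% had every STZ,SD mouse and 2.5% every STZ,BEZ mouse below every control. The share with both was not counted, and STZ,SD against Con,SD chose the genes. In Con,SD its log2 values ran from 10.25 to 10.92 with a median of 10.68, a range of 1.59-fold. In STZ,SD the values were 8.55, 7.96, 7.75, 10.06 and 9.14 in mice 1 to 5, a range of 4.97-fold. Mice 2 and 3 were lowest, as for Nrep, and mouse 4 was again highest. In STZ,BEZ the values were 9.52, 9.30, 10.10, 9.08 and 8.32, a range of 3.43-fold. Mouse 3 was again the highest of the treated mice and mouse 5 the lowest. The group means were 10.6 ± 0.276 (SD, n = 7), 8.69 ± 0.938 (SD, n = 5) and 9.26 ± 0.649 (SD, n = 5).

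**Figure D1:**
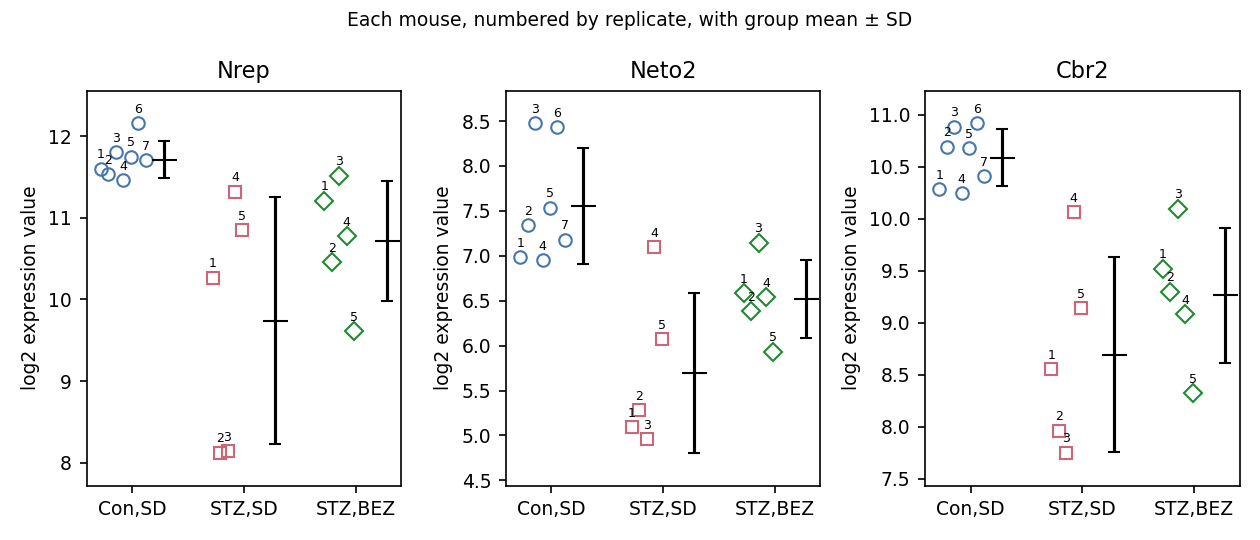
Log2 expression value of Nrep, Neto2 and Cbr2 on each of the 17 arrays, 1 point per mouse with its replicate number and the group mean ± SD beside it, on axes that do not start at 0. STZ,SD mouse 4 is the highest of its group in every panel, at 11.32, 7.10 and 10.06.

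STZ,SD was set against Con,SD to find what diabetes changed in muscle. This contrast chose the genes, so its values are given as a description with no test. Nrep fell by 1.98 ± 0.47 (SE) on the log2 scale, which is 3.93-fold lower, with a 95% interval of -2.96 to -0.99. Neto2 fell by 1.86 ± 0.35, 3.62-fold lower, with an interval of -2.59 to -1.12. Cbr2 fell by 1.89 ± 0.33, 3.72-fold lower, with an interval of -2.58 to -1.20. The 3 falls were thus of nearly one size, although Nrep had the widest interval. They stood at places 2, 4 and 3 among the falls of all 19938 genes, for Nrep, Neto2 and Cbr2. Just inside was Neto2 at -1.86, and just outside were Scd1 above them at -2.71, a desaturase of fatty acid synthesis, and Srsy and Ugt2b36 below them at -1.85 and -1.73. The order included Con,SD array 1 with its high liver and testis markers, and Con,SD arrays 2 and 3 with raised liver markers. It was not redone without these arrays. Over all genes limma called 5142 (25.8%) at an adjusted p under 0.1, and 684 (3.43%) had every STZ,SD mouse below every control mouse, as Nrep and Cbr2 did. Neto2 had 4 of 5 STZ,SD mice below every control.

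STZ,BEZ was set against STZ,SD to find what the drug changed in diabetic muscle. All 3 genes had higher means in STZ,BEZ, and none passed limma's test over all genes. The STZ,SD arrays of this test also took part in the choice of the genes. Nrep was 0.97 ± 0.51 higher on the log2 scale, with an interval of -0.09 to 2.04 and an adjusted p of 0.911 from limma. For Neto2 the difference was 0.82 ± 0.38, with an interval of 0.02 to 1.61 and a limma adjusted p of 0.87. For Cbr2 it was 0.57 ± 0.35, with an interval of -0.18 to 1.31 and a limma adjusted p of 0.94. The intervals thus held differences from about 0 to more than 2-fold, and these arrays do not separate them. The unadjusted limma p-values were 0.0707, 0.0441 and 0.126. In this comparison limma called 4 of 19938 genes (0.0201%), none of them a member, and 1134 genes had an unadjusted p under 0.05. The values moved up or down when single STZ,SD mice were left out. Nrep was 0.57 without mouse 2, 0.58 without mouse 3 and 1.37 without mouse 4. Neto2 was 0.63 without mouse 3 and 1.17 without mouse 4, and Cbr2 was 0.33 without mouse 3 and 0.91 without mouse 4. Cbr2 was also 0.36 without STZ,BEZ mouse 3.

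Against Con,SD the treated mice stayed low, again given without a test because the control arrays took part in the choice. Cbr2 differed by -1.32 ± 0.33 on the log2 scale (interval -2.01 to -0.64), which is 2.5-fold lower. Nrep differed by -1.0 ± 0.47 (interval -1.99 to -0.01) and Neto2 by -1.04 ± 0.35 (interval -1.77 to -0.30). All 5 treated mice lay below every control for Cbr2, and 4 of 5 did so for Nrep and for Neto2. Among the falls of all genes in this comparison the 3 stood at places 95 for Nrep, 88 for Neto2 and 46 for Cbr2. Their places in STZ,SD were set by the choice of the genes, so the orders cannot be compared. Limma called 4298 genes (21.6%) here, and 499 genes (2.5%) had every treated mouse below every control. Both comparisons with Con,SD share the control arrays.

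**Figure D2:**
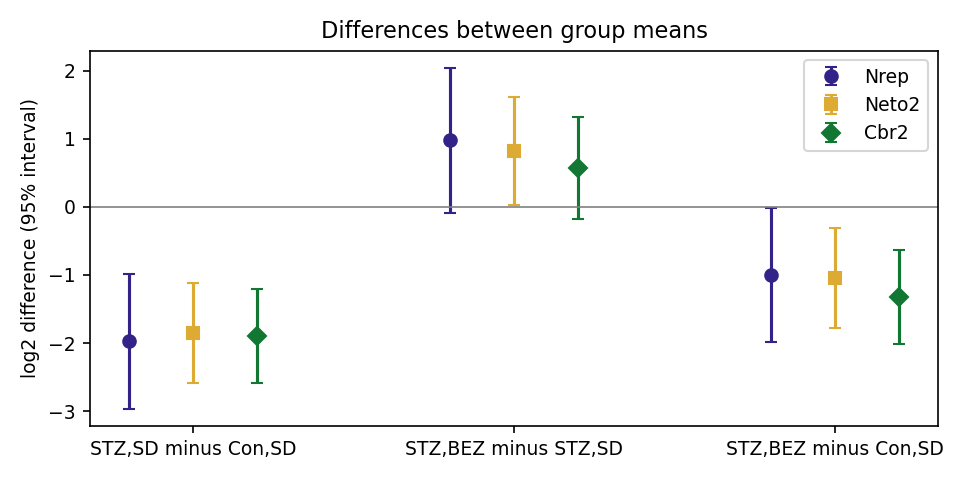
Difference between group means of Nrep, Neto2 and Cbr2 in log2 units, with the 95% interval from limma, for the 3 comparisons. The falls against Con,SD are near -2 in STZ,SD and between -1.32 and -1.0 in STZ,BEZ, and the intervals of STZ,BEZ minus STZ,SD reach from -0.18 to 2.04.

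The spread between mice of one group set these genes apart from most others, a measure that the choice did not use directly but that comes from the same arrays. The pooled within-group SD was 0.913 log2 units for Nrep, 0.678 for Neto2 and 0.636 for Cbr2, where the median gene had 0.139. In that order they stood at places 89, 203 and 227 of 19938 genes by this SD. In Con,SD alone, 84.7% of genes had a smaller SD than Nrep, 98.1% a smaller one than Neto2 and 90.2% a smaller one than Cbr2. In STZ,SD the shares were 99.8% for Neto2 and for Cbr2, and in STZ,BEZ they were 99.9% for Nrep, 99.4% for Neto2 and 99.8% for Cbr2. Nrep thus ranged 1.62-fold among control mice and 9.18-fold among diabetic ones, whereas Neto2 already ranged 2.87-fold among controls.

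**Figure D3:**
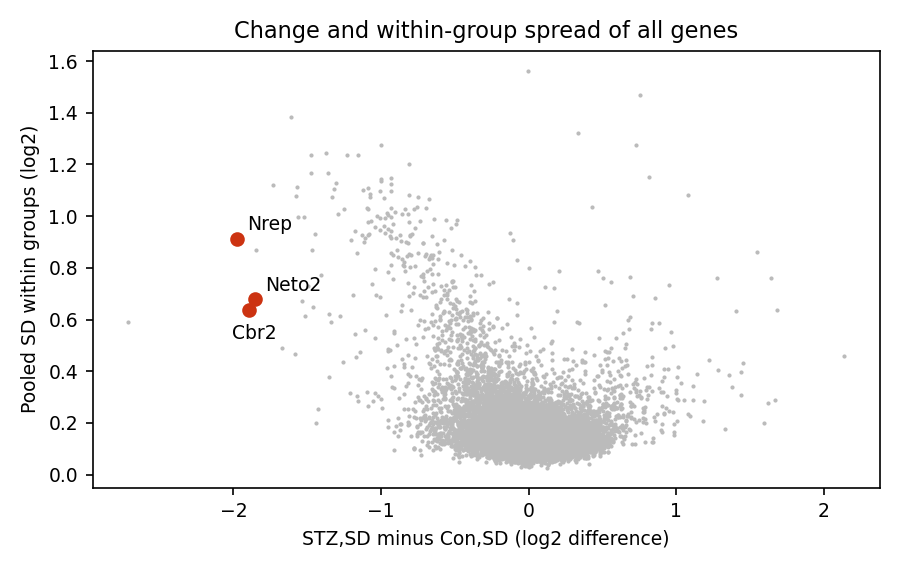
Pooled SD within groups against the difference STZ,SD minus Con,SD, both in log2 units, with 1 point per gene for 19938 genes and the 3 described genes in red. The 3 lie at the left, near -2, with SDs of 0.636 to 0.913.

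The 3 genes followed each other from mouse to mouse within the groups. Over the 7 control mice Neto2 and Cbr2 correlated at r = 0.92 (exact permutation p = 0.00298, adjusted over 6 relations 0.00596, Spearman's rho 0.93 with exact permutation p = 0.00675 and adjusted p = 0.0135). Nrep and Neto2 had r = 0.83 there (exact permutation p = 0.00813, adjusted 0.0122, rho 0.86 with exact permutation p = 0.0238 and adjusted p = 0.0357). Nrep and Cbr2 had r = 0.74 (exact permutation p = 0.0431, adjusted 0.0431, rho 0.79 with exact permutation p = 0.048 and adjusted p = 0.0525). Control mouse 4 was the lowest for all 3 genes. Without the 2 mice farthest from the median, r became 0.95 for Neto2 and Cbr2, 0.71 for Nrep and Neto2, and 0.45 for Nrep and Cbr2, so the last relation rested on those mice. All these p-values are two-sided. The control arrays also took part in the choice of the genes, so the p-values describe these mice and are no independent support.

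The same held over the 10 mice given streptozotocin, after the mean of STZ,SD or STZ,BEZ was taken off. Of these, the STZ,SD arrays took part in the choice of the genes, and the same limit applies. Neto2 and Cbr2 had r = 0.94 (exact permutation within groups, p = 0.00104, adjusted 0.00312, rho 0.90 with p = 0.00229 and adjusted p = 0.0115). Nrep and Cbr2 had r = 0.92 (exact permutation p = 0.000417, adjusted 0.0025, rho 0.89 with p = 0.00382 and adjusted p = 0.0115). Nrep and Neto2 had r = 0.80 (exact permutation p = 0.0215, adjusted 0.0258), but their rho of 0.76 had p = 0.0525. Without the 2 mice farthest from the median these were 0.85, 0.91 and 0.79. In STZ,BEZ the order of the mice was identical for Nrep and Neto2, from lowest to highest 5, 2, 4, 1 and 3, and for Cbr2 mice 2 and 4 changed places. In STZ,SD mouse 4 was highest and mouse 5 next for all 3 genes, while the order of mice 1, 2 and 3 differed between them.

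High correlations were common among the genes of these arrays. Of all genes, 0.331% had an r with Cbr2 over the controls as large as Neto2 had, and 0.507% over the streptozotocin mice. For Nrep with Cbr2 the shares were 5.31% and 0.923%, and for Nrep with Neto2 they were 1.87% and 3.88%. Neto2 and Cbr2 were therefore the closest pair by this count in both sets of mice. The count took r of either sign, against the second gene of each pair only. Over all 17 mice with group means taken off the order changed, with r = 0.91 for Nrep and Cbr2 and 0.87 for Neto2 and Cbr2. The difference between pairs was not tested.

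**Figure D4:**
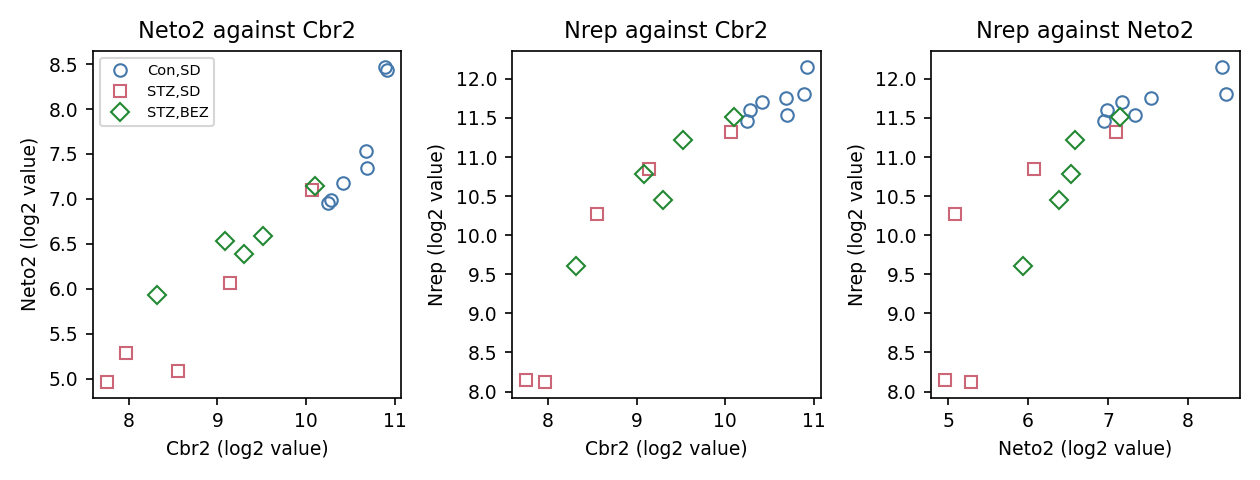
Log2 values of Neto2 against Cbr2, Nrep against Cbr2 and Nrep against Neto2, 1 point per mouse for the 17 mice, with symbols for the groups and axes that do not start at 0. Neto2 and Cbr2 rise together inside each group, with r = 0.92 in the 7 control mice.

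The genes most like each member over the 17 arrays were found by Pearson's r of the log2 values, a measure that includes the group difference that chose the members. For Nrep they were Map2k6, a kinase upstream of p38, at 0.989, Dynll2, a dynein light chain, at 0.976, Slc37a4, the glucose-6-phosphate transporter, at 0.970, Taco1 at 0.968 and Gid4 at 0.966. For Cbr2 they were Cdk19 and the co-chaperone Stip1 at 0.976 each, 1700001O22Rik at 0.970, Supt3 at 0.968 and Map7d1 at 0.967. For Neto2 they were 1700001O22Rik at 0.951, Cdk19 at 0.946, Cbr2 itself at 0.945, Naa38 at 0.931 and Stip1 at 0.923. Neto2 and Cbr2 thus shared 3 of these neighbours in pattern, and Nrep shared none with either. Map2k6 had a difference of -1.46 between STZ,SD and Con,SD and of 0.73 between STZ,BEZ and STZ,SD, smaller than those of Nrep in both.

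With the group mean taken off, so that only mouse-to-mouse variation counted, Nrep stayed closest to Map2k6 at r = 0.979, followed by Slc41a3, a magnesium transporter, at 0.970, Sparc, a matrix protein, at 0.959, Pla2g7 at 0.959 and Taco1 at 0.958. Cbr2 was closest to Map7d1 at 0.957, the heat shock protein Hsph1 at 0.955, B3gnt9 at 0.950, Cdk19 at 0.950 and 1700001O22Rik at 0.947. Neto2 was closest to Sbk2 at 0.909, 1700001O22Rik at 0.900, the kinase Hipk2 at 0.900, the nuclear pore protein Nup210 at 0.896 and Casp12 at 0.896. Hipk2 and Nup210, which followed Neto2 within groups, had differences between STZ,SD and Con,SD of only 0.05 and -0.02. A gene could therefore follow Neto2 from mouse to mouse without its fall.

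Levels of marker genes moved with the 3 genes within groups. The mean of 8 fibroblast markers followed Nrep over the 17 mice after the group means were taken off, at r = 0.94 (permutation within groups, p = 0.0011, adjusted over 42 relations 0.0448, rho 0.84 with adjusted p = 0.0638). Its level was 9.35 to 9.62 in Con,SD. In STZ,SD it was 9.61, 8.54, 8.64, 9.75 and 9.51 in mice 1 to 5, so mice 2 and 3, with the lowest Nrep, also had the lowest marker level. Among the markers, the collagen genes Col1a1, Col1a2 and Col3a1 followed Nrep at r = 0.96, 0.95 and 0.93 and Dpt at 0.92, whereas Lum was at 0.73, Pi16 at 0.66, and Dcn and Pdgfra, which also mark these cells, were at 0.63 and 0.53. Of the 8 markers 0 were called higher and 1 was called lower in STZ,SD than in Con,SD, where 25.8% of all genes were called, so the count says little. Fibroblast markers also followed Cbr2 at r = 0.82 (permutation p = 0.0032, adjusted 0.0448, rho 0.75 with adjusted p = 0.0672), and Neto2 at 0.56 (permutation adjusted p = 0.224). Without STZ,SD mice 2 and 3, which lay farthest from the median, the r of fibroblast markers was 0.88 with Nrep and 0.76 with Cbr2.

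Neto2 ran against the level of slow fibre genes, the 7 contractile and calcium-handling genes such as Myh7 and Tnni1 that mark slow-twitch fibres. The relation had r = -0.75 over the 17 mice with group means taken off (permutation p = 0.0032, adjusted 0.0448, rho -0.73 with adjusted p = 0.0638) and -0.73 without the 2 mice farthest from the median. The slow fibre level ran from 6.76 to 9.45 in Con,SD, and was 10.0, 9.48, 9.48, 7.03 and 6.76 in STZ,SD mice 1 to 5. In STZ,SD the mice with the higher Neto2, 4 and 5, were those with the low slow fibre level. In STZ,BEZ the level was 8.55, 10.4, 8.84, 8.67 and 9.42. The group mean was 8.08 for controls, 8.55 for STZ,SD and 9.18 for STZ,BEZ, and 0 of the 7 genes were called in any comparison. Of all genes, 25.8% were called in STZ,SD and 21.6% in STZ,BEZ against Con,SD, and 0.0201% between STZ,BEZ and STZ,SD. The SD of these 7 genes in STZ,SD ran from 0.83 for Tnnt1 to 2.03 for Myl2, so the count does not show that the level stayed the same. Cbr2 had r = -0.65 with the same markers (permutation adjusted p = 0.136, rho -0.66 with adjusted p = 0.096), and Nrep had -0.58 (permutation adjusted p = 0.258, rho -0.52 with adjusted p = 0.284). Markers of 14 cell and fibre types were looked at in this way. Of 42 relations, 3 had an adjusted p under 0.1 by r and 7 by rho. Those with such a p by rho alone were skeletal muscle fibre markers with Neto2 and with Cbr2 (rho -0.75, permutation adjusted p = 0.0638 each), smooth muscle markers with Cbr2 (rho -0.74, permutation adjusted p = 0.0638) and slow fibre markers with Cbr2. The skeletal muscle fibre markers did not move together. Myh1 and Myh2 had r of -0.61 and -0.64 with Neto2, whereas Tnnc2 had 0.50, Ckm 0.23 and Acta1 0.14. With Cbr2, Myh1 and Myh2 had -0.56 and -0.485, and Tnnc2, Ckm and Acta1 had 0.58, -0.04 and 0.03.

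The falls were smaller when such a level entered the fit as a covariate, a pair of alternatives chosen after seeing the data. Both levels had followed or run against members on these same arrays. A level that moves with a gene within groups and differs between groups in the matching direction makes the difference smaller by arithmetic. The smaller falls are therefore no independent result. With the fibroblast level, the differences between STZ,SD and Con,SD were -1.28 ± 0.18 (SE) for Nrep, -1.55 ± 0.32 for Neto2 and -1.47 ± 0.21 for Cbr2. Without a covariate the SEs were 0.47, 0.35 and 0.33, so the SEs became smaller as well. The differences between STZ,BEZ and Con,SD were -0.45, -0.80 and -0.99. With the slow fibre level the differences from Con,SD were -1.76, -1.65 and -1.73 in STZ,SD, and -0.50, -0.56 and -0.93 in STZ,BEZ. The lower values in STZ,BEZ thus came to less than 1 log2 unit for each gene under either covariate. Between STZ,BEZ and STZ,SD the differences of Nrep, Neto2 and Cbr2 were 0.83, 0.75 and 0.48 with the fibroblast level. With the slow fibre level they were 1.26, 1.09 and 0.79, larger than without a covariate. Their adjusted p from limma was 0.161, 0.66 and 0.675 with the fibroblast level and 0.512, 0.287 and 0.519 with the slow fibre level. The part of the sampled muscle or of its connective tissue in the 3 falls was not tested. The mean level of neuron markers lay at 4.84 to 5.20 and that of lung epithelium markers at 5.36 to 6.25 on all arrays, the cell types in which Neto2 and Cbr2 are best known. In the lung list Cyp2f2 stood above the other markers, with group means of 9.07, 8.20 and 7.34 in Con,SD, STZ,SD and STZ,BEZ. Macrophage markers had r of 0.75 with Nrep, 0.35 with Neto2 and 0.61 with Cbr2, and smooth muscle markers had -0.62, -0.62 and -0.65. Adipocyte markers had 0.20, 0.00 and 0.11, and 1 of their 7 genes was called lower in each of the comparisons with Con,SD. Of all genes, 25.8% were called in STZ,SD and 21.6% in STZ,BEZ against Con,SD.

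**Figure D5:**
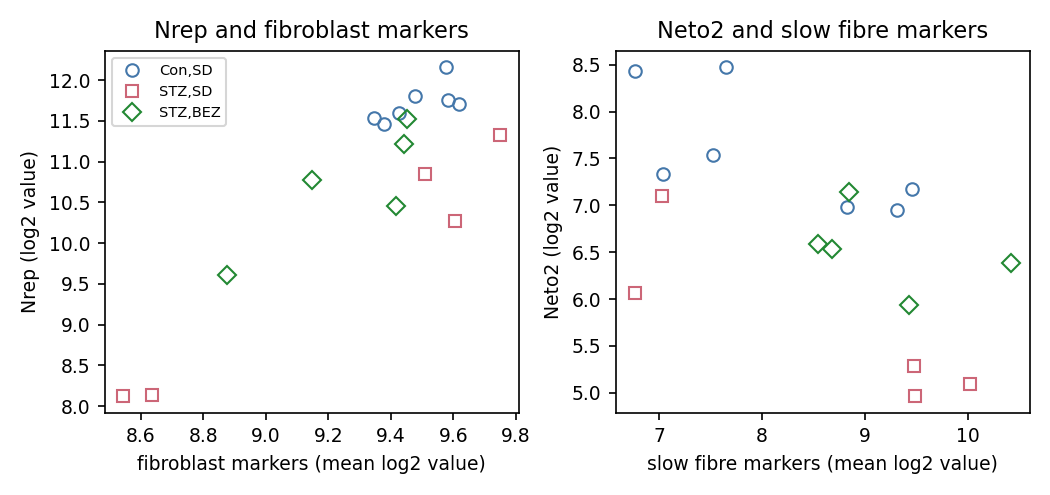
Log2 value of Nrep against the mean log2 level of 8 fibroblast markers, and of Neto2 against that of 7 slow fibre markers, 1 point per mouse for the 17 mice with symbols for the groups, on axes that do not start at 0. Nrep rises with the fibroblast level (r = 0.94 with group means taken off) and Neto2 falls with the slow fibre level (r = -0.75).

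In TGF-beta signalling, the pathway to which Nrep is tied, 12 of 27 measured genes rose and 2 fell in STZ,SD against Con,SD. The median difference was 0.19, where the median over all genes was -0.01 and 25.8% of all genes were called. The co-receptor Eng rose by 0.57 ± 0.08 (limma adjusted p = 8.47e-05), the protease Furin by 0.54 ± 0.08 (adjusted p = 0.000112), the receptor Tgfbr1 by 0.52 ± 0.07 (adjusted p = 0.000103) and the ligand Tgfb2 by 0.48 ± 0.08 (adjusted p = 0.000505). Smad3, which carries the signal to the nucleus, fell by 0.60 ± 0.17 (limma adjusted p = 0.022), while Smad2 had a difference of -0.15 ± 0.08 (adjusted p = 0.186). Against Con,SD, STZ,BEZ had 13 genes of the list higher and 1 lower, where 21.6% of all genes were called, among them Eng at 0.52 and Tgfb2 at 0.51, and between STZ,BEZ and STZ,SD 0 of 27 were called. The receptor, ligand and protease genes named here were higher in both streptozotocin groups. They were named for the smallest limma p of the list in STZ,SD against Con,SD, where 13 of the 27 genes were not called.

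Neurite growth is the other setting in which Nrep is known. Of 20 measured genes of this list, 1 rose and 3 fell in STZ,SD, a share near the 25.8% called over all genes, with a median of 0.02. Ncam1, a cell adhesion molecule that rises in denervated muscle, rose by 0.48 ± 0.12 (limma adjusted p = 0.00872). The neuronal tubulin Tubb3 fell by 0.34 ± 0.11 (adjusted p = 0.0396), Stmn2 by 0.22 ± 0.07 (adjusted p = 0.046) and Gap43 by 0.28 ± 0.10 (adjusted p = 0.0584). The calls of these 3 genes did not hold without single mice. That of Tubb3 was lost without STZ,SD mouse 5, that of Stmn2 without STZ,SD mouse 1 and that of Gap43 without STZ,SD mouse 1 or 2. Leaving out control mice 1, 3 and 4 at once also ended the calls of Tubb3 and Stmn2. In STZ,BEZ against Con,SD, the differences of Tubb3, Stmn2 and Gap43 were -0.42, -0.37 and -0.38, all called, and kept their calls without any 1 mouse. The stress-induced factor Atf3 differed by 0.24 ± 0.23 in STZ,SD (adjusted p = 0.496). In STZ,BEZ it was 0.75 ± 0.23 above Con,SD (limma adjusted p = 0.0376), a call lost without STZ,BEZ mouse 3 or 4. In STZ,SD against Con,SD no gene of this list differed by more than the 0.48 of Ncam1, where Nrep differed by -1.98.

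Of 19 measured genes of glutamate receptors, the class that Neto2 joins, and their partners, 1 rose and 3 fell in STZ,SD, a share near the 25.8% of all genes, with a median of -0.01 and no difference beyond the range of -0.24 to 0.28. Grik5, a kainate receptor subunit, rose by 0.28 ± 0.08 (limma adjusted p = 0.02), with control mouse 3 far below the other controls at 6.34. The scaffold protein gene Pick1 fell by 0.24 ± 0.06 (adjusted p = 0.00832). Gria2 fell by 0.19 ± 0.07 (adjusted p = 0.062) and Gria4 by 0.17 ± 0.06 (adjusted p = 0.0754), both subunits of AMPA receptors. The call of Gria2 was lost without control mouse 2 or STZ,SD mouse 1 or 2 and that of Gria4 without any one of control mice 3, 6 and 7 and STZ,SD mice 1, 2, 3 and 5. Grin2c had a difference of 0.11 and Grid1 of -0.03, neither called. Neto1, the closest relative of Neto2, had group means of 4.60, 4.45 and 4.48 in Con,SD, STZ,SD and STZ,BEZ. Its difference in STZ,SD was -0.15 ± 0.10 (limma adjusted p = 0.309).

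Other enzymes of carbonyl reduction also fell, though less far than Cbr2. Of 32 measured genes of short-chain dehydrogenases and aldo-keto reductases, 15 fell and 1 rose in STZ,SD, so 16 were called where 25.8% of all genes were, and the median was -0.22. Hsd17b10, a mitochondrial dehydrogenase of isoleucine and steroid breakdown, fell by 0.78 ± 0.06 (limma adjusted p = 9.01e-07). Cbr4, a carbonyl reductase of mitochondrial fatty acid synthesis, fell by 0.69 ± 0.07 (adjusted p = 7.81e-06), and the aldo-keto reductases Akr1b10, Akr1e1 and Akr1a1 fell by 0.76 ± 0.12, 0.45 ± 0.10 and 0.36 ± 0.06 (adjusted p = 0.00027, 0.00544 and 0.000324). No member of the list had a difference below -0.81, where Cbr2 had -1.89. In STZ,BEZ against Con,SD 8 fell and 4 rose, where 21.6% of all genes were called, with Hsd17b10 at -0.68, Cbr4 at -0.46 and Akr1b10 at -0.55 still called and Akr1e1 at -0.09 not called. Between STZ,BEZ and STZ,SD 0 of 32 were called.

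The closest relatives of Cbr2 had much smaller differences. Dcxr, a xylulose reductase whose gene lies 2201 bases away, had group means of 7.68, 7.71 and 7.76 in Con,SD, STZ,SD and STZ,BEZ and a difference in STZ,SD of 0.03 ± 0.07 (limma adjusted p = 0.772). Cbr1, the cytosolic carbonyl reductase, had means of 8.13, 7.90 and 8.09. It fell by 0.23 ± 0.09 in STZ,SD (limma adjusted p = 0.0803), where mouse 2 at 8.02 stood above the others of its group. This call was lost without any one of control mice 1, 2, 5 and 7 and STZ,SD mice 1, 3, 4 and 5, and its difference between STZ,BEZ and STZ,SD was 0.19 ± 0.10 (adjusted p = 0.905).

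The nearest measured neighbours of Neto2 and Cbr2 along the chromosome numbered 8, and 0 of them were called by limma in STZ,SD against Con,SD, where 25.8% of all genes were, so the count says little. Neto2 lies between Dnaja2 and Gpt2 on the one side and Itfg1 and Phkb on the other. Their differences in STZ,SD were 0.07, 0.22, -0.14 and -0.05 (limma adjusted p = 0.341, 0.109, 0.31 and 0.658). Beside Cbr2, Rac3, Rfng and Gps1 had differences of 0.10, 0.17 and -0.13 (limma adjusted p = 0.446, 0.161 and 0.125). Rfng alone of these was called in STZ,BEZ against Con,SD, at 0.23 (limma adjusted p = 0.0719).

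Around Nrep, the measured neighbours Stard4, Camk4, Gm10549 and Epb41l4a had differences in STZ,SD of -0.02, -0.03, -0.12 and -0.13 (limma adjusted p = 0.924, 0.755, 0.441 and 0.34). Gm10549 overlaps Nrep. None of these neighbours came near the difference of -1.98 in Nrep.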

How the data were processed

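The authors hybridised muscle RNA of 17 mice to Affymetrix gene-level arrays and deposited log2 values from RMA. The submitters' processing notes give Affymetrix Expression Console 1.2 for this step. RMA quantile-normalises the arrays, so a shift of most genes would not be seen. Of 35556 probe sets, 1 symbol was paired with 21789, several with 1621 and none with 12146. The brightest probe set of a gene by its mean over all 17 arrays stood for it, giving 19938 genes. The number of arrays limits the precision, scan dates were not used, and values of different probe sets have no common scale per transcript.

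Groups came from the labels, which number the mice as biological replicates. A single limma model (limma 3.58.1, R 4.3.3, functions lmFit and eBayes) over all 17 arrays gave every comparison, and a gene was called at a Benjamini-Hochberg adjusted p under 0.1, as strict as the rate the study chose. Significance analysis of microarrays (SAM), which the study used, was an alternative in an implementation written for this work, with 100 permutations. Correlations used Python 3.11.15 with numpy 2.4.6, scipy 1.17.1 and pandas 2.3.3, as exact permutations or, for marker levels, 100000 permutations within groups. The fit was tested on simulated data. Promoter windows were those of RefSeq on GRCm38.p6.

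The members, gene lists and marker lists were chosen with earlier results of these data known. Named genes were the 3 members, their paralogs Neto1, Dcxr and Cbr1, the 2 nearest measured genes on each side, the 5 genes most like each member by either measure, and from each list up to 4 genes with the smallest limma p in STZ,SD against Con,SD and up to 2 in STZ,BEZ against STZ,SD. Alternatives were median centring, a second quantile normalization, averaging the probe sets of a gene, leaving out the 30% of genes with the lowest means, array weights, the replicate number as a block, only the groups compared, SAM, and leaving out each array.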

Additional observations from a re-analysis of the deposited data

Results flagged for a closer look

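In 39 named genes, the highest and the lowest array of each group were checked for a wide gap to the others, which chance alone gives in about 5% of groups. Of 117 groups, 6 had such a gap, and none was of Nrep, Neto2 or Cbr2. Cbr1 was highest in STZ,SD mouse 2 at 8.02, with the next at 7.89. Smad3 was lowest in STZ,BEZ mouse 5 at 9.01, with the next at 9.59, and that mouse was also the lowest of its group for all 3 members. Grik5 was lowest in Con,SD mouse 3 at 6.34, with the next at 6.66. Akr1b10 was lowest in Con,SD mouse 6 at 10.4, with the next at 10.7. Dnaja2 was lowest in STZ,SD mouse 5 at 10.4, with the next at 10.5. Itfg1 was highest in Con,SD mouse 5 at 10.1, with the next at 9.89.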

How the results depend on the processing

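All 9 differences of Nrep, Neto2 and Cbr2 kept their direction in the 246 values computed under the alternatives, and none of the 81 tested values of STZ,BEZ against STZ,SD passed the threshold (limma adjusted p from 0.161 to 1). SAM called no member there. Leaving out 1 array moved the STZ,SD to Con,SD difference between -2.37 and -1.57 for Nrep, -2.21 and -1.67 for Neto2, and -2.24 and -1.66 for Cbr2. It moved STZ,BEZ minus STZ,SD between 0.57 and 1.37, 0.63 and 1.17, and 0.33 and 0.91, and STZ,BEZ minus Con,SD between -1.20 and -0.72, -1.20 and -0.89, and -1.53 and -1.09. The genes called between STZ,BEZ and STZ,SD, 4 in all, were 11 with array weights, 7 with Con,SD arrays 1, 3 and 4 left out together, 8 with only those groups in the fit and 25 with SAM, and, in fits added after seeing the data, 9 once the fibroblast level was a covariate and 7 once the slow fibre level was. The cause was not tested. The mice of different groups that share a replicate number did not deviate together (correlations of -0.24 to 0.08), so the numbers were not taken as pairs. With the replicate block, the differences in STZ,SD were -1.89, -1.76 and -1.86, those in STZ,BEZ against Con,SD -0.91, -0.94 and -1.29, and 4598, 5 and 3825 genes were called in the 3 comparisons.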
